A study of Homo sapiens with 6 samples.

Results

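The 2 arrays of EGF-stimulated A549 cells were described by the absolute levels of their genes. They were chosen by their titles, and are 2 of the 6 Affymetrix arrays of the series. A549 is an established human lung adenocarcinoma line whose label calls it alveolar basal epithelium. The EGF cells are labelled as EGF-stimulated and carry no label of a transfection, and no dose or time of EGF is given. Cells of every group were seeded for 12 h in medium with 10% FBS. The other arrays hold cells transfected with a pCMV5 vector encoding human PIAS3 (2 arrays) and cells given an siRNA against STAT3 (2 arrays), both harvested 48 h after transfection. The series' design text gives serum-free medium and then EGF to all 3 groups, although the titles name EGF for these 2 arrays alone. The labels name neither an empty vector nor a control siRNA. They leave unsaid whether replicate arrays hold separate cultures, so every p-value below measures a spread that may be technical.

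A549 cells come from a carcinoma of the distal lung. The healthy alveolus is lined by type II cells, which make surfactant, and by thin type I cells, which form the gas exchange surface. A549 carries mutant STK11 and KEAP1. KEAP1 normally marks the transcription factor NRF2 (gene NFE2L2) for destruction, so cells without working KEAP1 are known for high antioxidant enzymes. NRF2 binds antioxidant response elements in the promoters of these genes.

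Such elements were looked for in the 250 bases before the start of each gene, in RefSeq promoters of build GRCh38.p14. The letters searched were TGACNNNGC, the core of the antioxidant response element, or their reverse complement GCNNNGTCA. They stood before 8 of the 21 NRF2 target enzymes that had a promoter entry (38.1%), against 17.5% of 3940 genes well above background, 16.0% of 9563 genes measured on the arrays and 13.2% of 27305 RefSeq genes. The list was of known NRF2 targets, and such elements are part of how these targets are known. The higher share is therefore no independent result. A match is a description of letters and not a binding site. The 7 stretches below precede the enzymes among the 8 that read at or above 9.68 in both EGF arrays, with 1 of the 2 TXNRD1 starts shown and CBR1, which read 9.48 and 9.51, left out. Capitals mark the match, in the direction of the gene.
GSTP1 (chr11:67583721-67583779, plus strand): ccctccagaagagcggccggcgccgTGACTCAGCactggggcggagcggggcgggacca
ME1 (chr6:83431155-83431213, minus strand): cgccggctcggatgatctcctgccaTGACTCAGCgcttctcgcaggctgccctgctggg
TXNRD1 (chr12:104215655-104215713, plus strand): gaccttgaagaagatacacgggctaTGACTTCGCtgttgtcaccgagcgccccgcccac
PGD (chr1:10398838-10398896, plus strand): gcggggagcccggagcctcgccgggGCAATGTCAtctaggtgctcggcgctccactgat
GCLM (chr1:93909431-93909489, minus strand): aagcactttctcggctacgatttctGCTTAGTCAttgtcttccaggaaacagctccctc
EPHX1 (chr1:225825251-225825309, plus strand): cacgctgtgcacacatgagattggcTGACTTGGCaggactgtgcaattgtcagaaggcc
GPX2 (chr14:64942834-64942892, minus strand): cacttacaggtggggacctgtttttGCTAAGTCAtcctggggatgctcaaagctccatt
In GSTP1 and ME1 the match also holds the letters of the AP-1 site, TGACTCA.

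Levels are deposited log2 values of probe sets, the groups of short probes that stand for a transcript. The table held 22215 probe sets that were not array controls, and 11963 genes with a single symbol. Each gene was represented by its brightest probe set in the EGF arrays. Probe sets differ in how strongly they bind, so the order of 2 genes is an order of signal, not of transcript number. For 4310 genes with 2 or more probe sets, the brightest and dimmest lay more than 1 log2 apart in 65.6% and more than 2 log2 apart in 37.7%. The 6 arrays had medians of 6.63 to 6.72. PIAS3 replicate 1 stood apart from the rest, with the antiviral gene MX1 at 10.61, against 4.82 and 4.94 in the EGF arrays. No level of the EGF arrays below depends on that array, other than through the authors' joint normalization.

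The lower end of the scale was set by the Trpn control probe sets, which are directed at a bacterial transcript that is not in the sample. The 3 of them read 3.38, 3.80 and 3.93 in EGF replicate 1 and 3.27, 3.78 and 3.75 in replicate 2. A gene was called at the absent level where it lay at or below the highest of these in each array. This held for 641 of 11963 genes (5.36%). A second scale came from 29 measured genes of unrelated tissues, such as those of sperm, pancreas, heart, brain and lens. Only GCG (glucagon) and CPA1 (a pancreatic carboxypeptidase) of these 29 were at the absent level. The list had a median of 5.11 and ran from 3.55 to 7.81. Its highest members were MBP (a myelin protein, 7.70 and 7.92) and HBB (beta globin, 7.24 and 7.27). The highest single reading of the list was 7.92, and 8 in both arrays was used as the limit for well above background. It was reached by 4648 genes (38.9%), and 266 genes (2.22%) were bright, at 12 or more in both arrays. Below the limit of 8, a level was not read as expression.

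**Figure D1:**
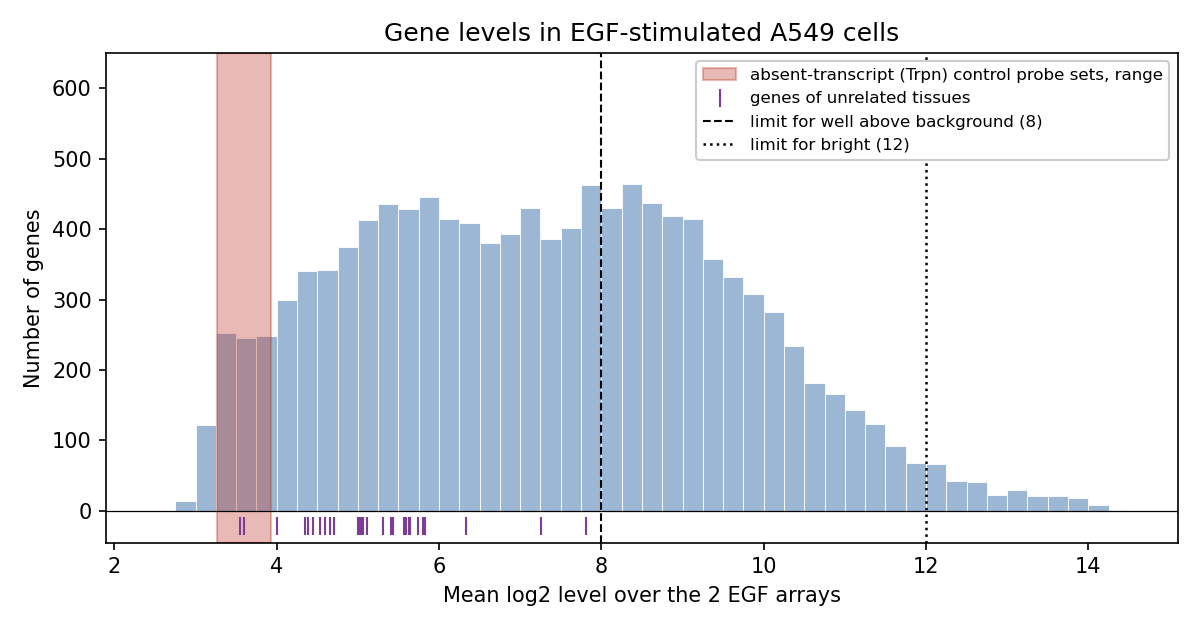
The number of genes (vertical axis) in steps of mean log2 level over both EGF arrays (horizontal axis). The shaded band is the range of the 3 absent-transcript control probe sets, and the purple marks, from 3.55 to 7.81, are 29 genes of unrelated tissues, all left of the dashed limit of 8.

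Both EGF arrays gave nearly the same level for most genes. Replicate 1 minus replicate 2 had an SD of 0.15 over all probe sets, and 85.4% of genes lay within 0.2 log2 of each other. The spread narrowed with level: the SD of the difference was 0.16 for genes with means under 6 that were not at the absent level. It was 0.13 between means of 8 and 10, and 0.07 at means of 12 or more. A single gene, SCD5, a fatty acid desaturase, differed by more than 1 log2 (6.96 and 5.66). Among genes well above background, the folate receptor FOLR1 differed most (8.96 and 9.65, with its other probe set averaging 5.58). It was followed by the RNA-binding protein HNRNPL (9.21 and 9.87), the GTPase CDC42 (8.78 and 9.40) and the replication factor GINS4 (8.61 and 8.01). The other 6 of the 10 widest were PMAIP1, SDHAF3, PRELID3B, YEATS4, CNN3 and GNL3L. All 10 means of these genes lay below 9.6, in the range where the arrays were less precise.

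**Figure D2:**
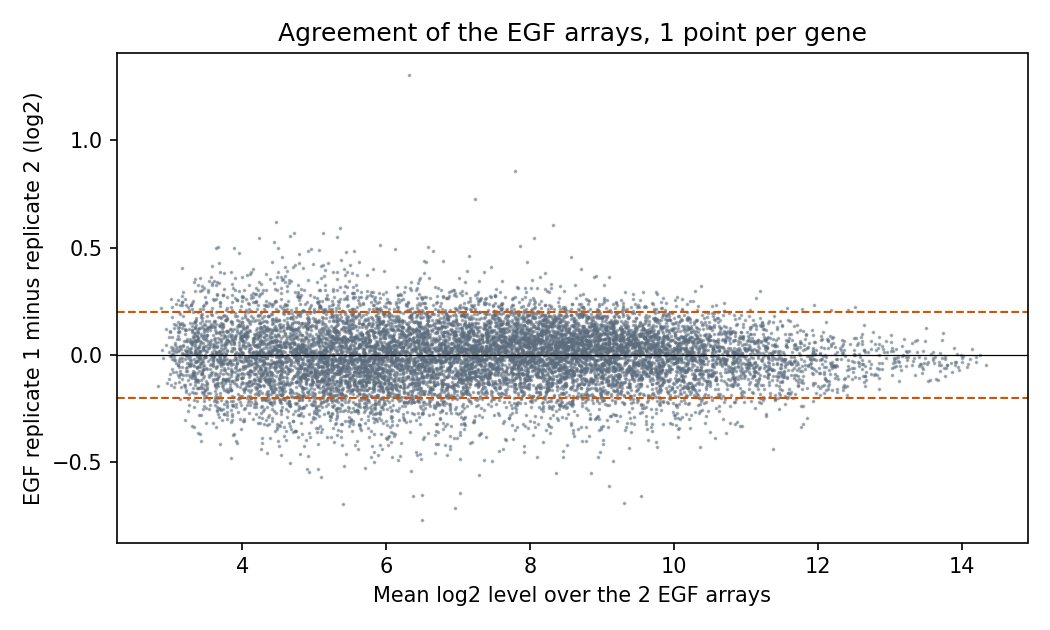
EGF replicate 1 minus replicate 2 (vertical axis, log2) against the mean level of each gene (horizontal axis), 1 point per gene. Dashed lines stand at 0.2 and -0.2, which enclose 85.4% of genes, and the cloud narrows toward bright genes.

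The brightest signals came from the machinery of protein synthesis, the cytoskeleton, iron storage and glycolysis. Of the 25 brightest genes, 15 were ribosomal proteins. RPL41, a very short ribosomal protein, read 14.31 and 14.36, RPS19 read 14.19 and 14.20, and RPLP1 read 14.10 and 14.12. The elongation factor EEF1A1, which carries aminoacyl-tRNA to the ribosome, read 14.18 and 14.21. Of these genes, RPL41 read highest and RPLP1 lowest in both arrays. RPS19 and EEF1A1 changed order between the arrays, so their order is not settled.

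The cytoskeleton was represented by ACTB (beta actin, 14.25 and 14.25), TMSB10 (an actin-monomer binding peptide, 14.02 and 14.02) and TUBA1B (alpha tubulin, 13.98 and 13.99). GAPDH, a glycolytic enzyme, read 14.16 and 14.13, and FTL, the ferritin light chain, 14.07 and 14.11. ANXA2, a calcium-dependent membrane-binding protein, read 13.99 and 14.00. TPT1 (a growth-related protein, 13.92 and 13.99), TGFBI (an extracellular matrix protein, 13.91 and 13.88) and PPIA (cyclophilin A, 13.76 and 13.77) closed the non-ribosomal members. Of the 25 probe sets, 13 carried the suffix _x_at, which marks probes shared with other sequences, against 7.45% of all genes. Signal of a gene and of its near-identical copies cannot be told apart in such probe sets.

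**Figure D3:**
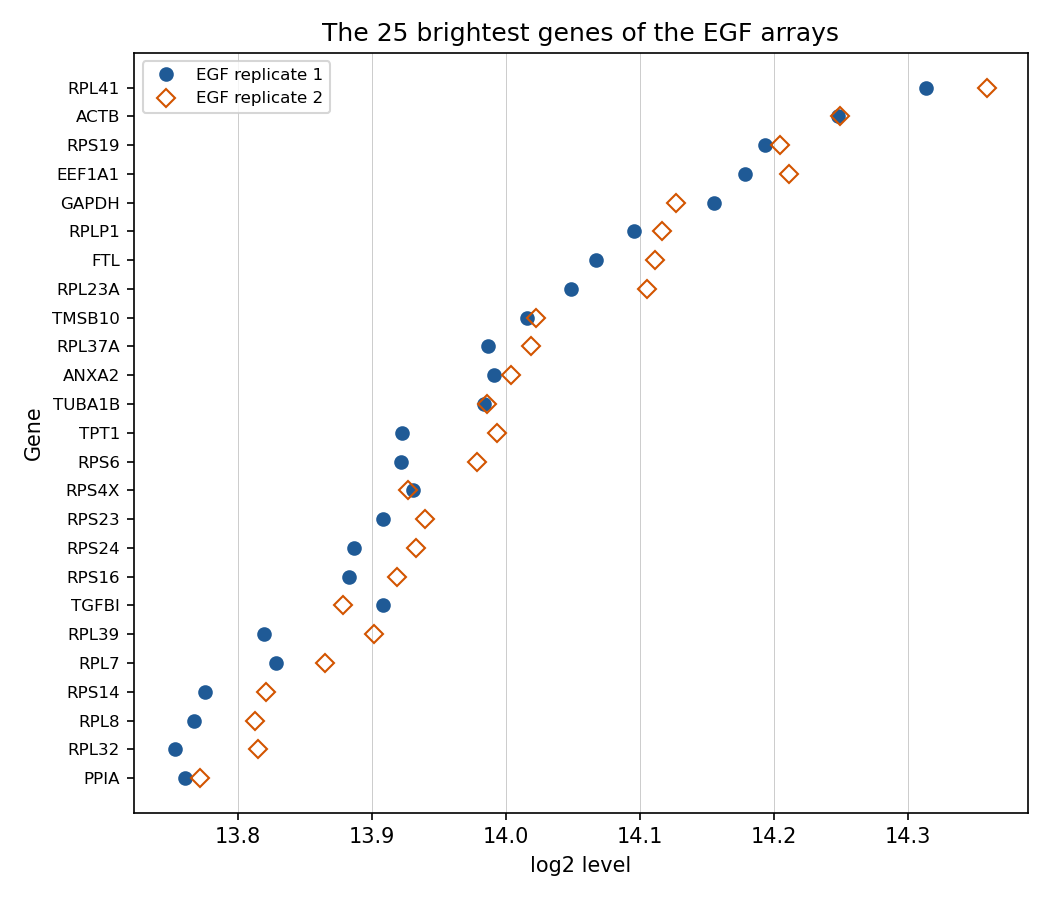
The 25 genes with the highest mean log2 level over the EGF arrays (rows), with replicate 1 as filled circles and replicate 2 as open diamonds (horizontal axis, log2 level). They run from RPL41 at 14.31 and 14.36 to PPIA at 13.76 and 13.77, and neighbours are often closer than the arrays' spread.

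The same picture held for whole lists. Of 51 ribosomal proteins, 48 were bright and the median was 13.53, against 2.22% bright and a median of 7.25 over all genes. Of 13 translation factors, 11 were bright (median 12.85). In glycolysis 11 of 20 genes were bright (median 12.56), among them ALDOA (aldolase), LDHA and LDHB (lactate dehydrogenase subunits), PKM (pyruvate kinase) and ENO1 (enolase). The hexokinases differed, HK1 being at 9.74 on average and HK2 at 5.53 and 5.45, below the limit of 8. All 21 proliferation genes were well above background (median 10.61), against 38.9% of all genes. The DNA clamp PCNA read 12.33 and 12.43 and the proliferation antigen MKI67 8.73 and 8.58.

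NRF2 target enzymes were the brightest of the lists chosen for carcinoma. Members and lists were chosen with earlier results of these data known, so this rank is a description and not a test. Of 28 measured, 27 were well above background (96.4%, against 38.9% of all genes) and 14 bright (50%, against 2.22%). The median was 11.94, against 7.25 over all genes. FTL, the ferritin light chain, was the highest member of the list and is not an enzyme. The aldo-keto reductases, which reduce carbonyls and steroids, stood near the top of the array. AKR1C1 read 13.73 and 13.79, AKR1C2 13.75 and 13.78, AKR1C3 13.57 and 13.57, and AKR1B10 13.62 and 13.63. AKR1C1 and AKR1C2 are near-identical genes and their brightest probe sets are of the _x_at kind, so which of them gave the signal is uncertain.

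ALDH1A1, a retinaldehyde dehydrogenase, read 13.71 and 13.73, and ALDH3A1, which oxidises aromatic and fatty aldehydes, 11.61 and 11.55. The quinone reductase NQO1 read 13.24 and 13.22, the thioredoxin reductase TXNRD1 12.60 and 12.64, and the glutathione transferase GSTP1 12.17 and 12.10. Enzymes of NADPH supply were also high, PGD (pentose phosphate pathway) at 12.16 and 12.22 and ME1 (malic enzyme) at 10.42 and 10.64. Lower within the list, and still above the limit of 8, were the glutathione synthesis subunits GCLM (10.26 and 10.47) and GCLC (9.39 and 9.60), the glutathione peroxidase GPX2 (9.78 and 9.68) and the heme oxygenase HMOX1 (9.60 and 9.62). Only OSGIN1, a growth inhibitor induced by oxidative stress, stayed below the limit (6.59 and 6.35). NFE2L2 itself read 10.22 and 10.24, and KEAP1 9.44 and 9.27.

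**Figure D4:**
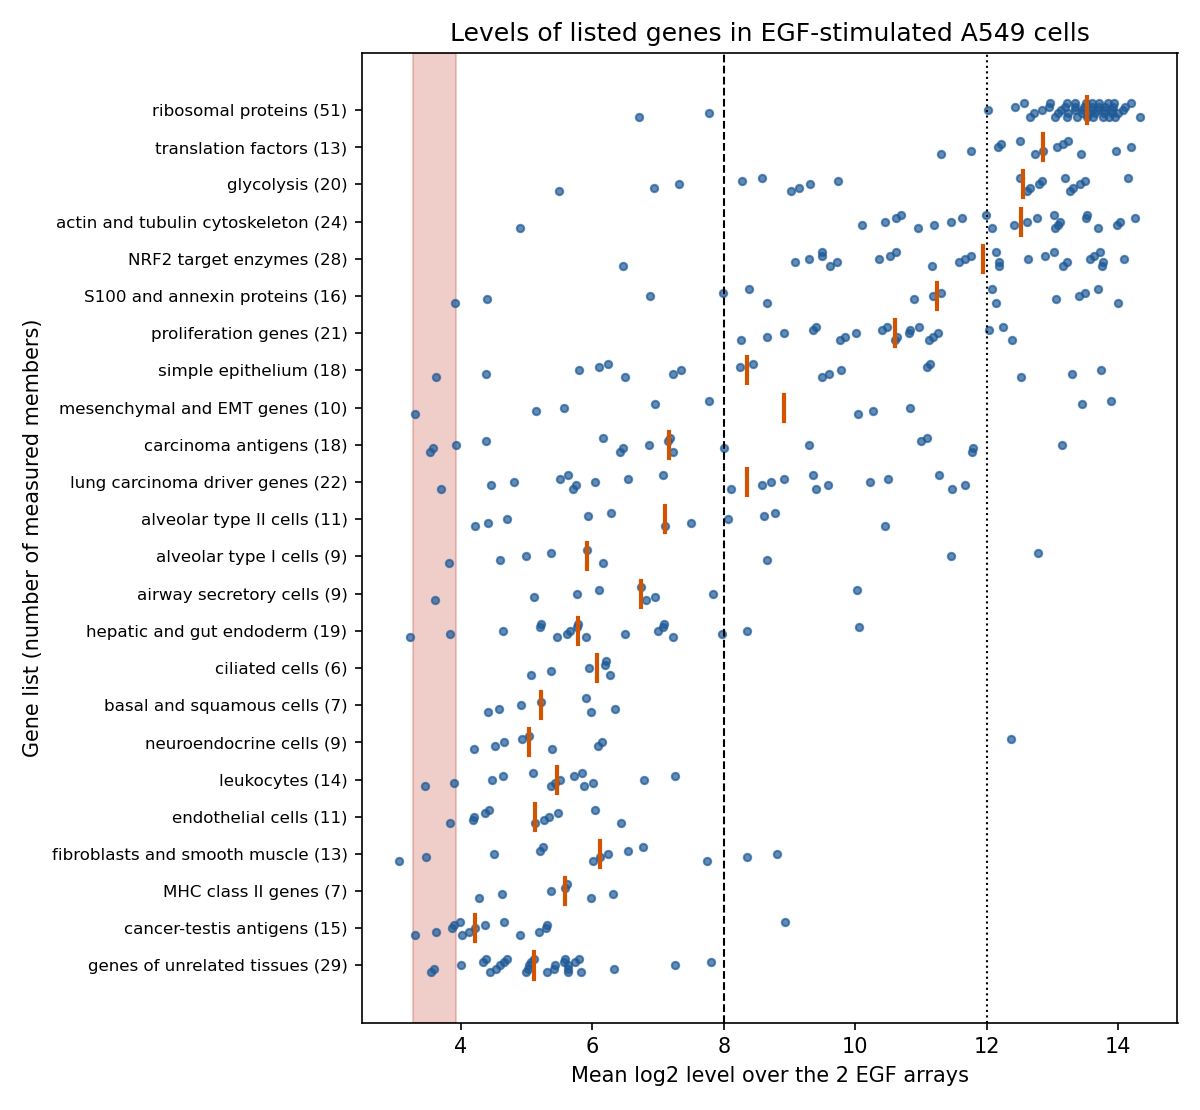
Mean log2 level over the EGF arrays (horizontal axis) of each measured member (points) of 24 gene lists (rows), with the list median as an orange bar. The shaded band is the absent-transcript control range, and the dashed and dotted lines mark 8 and 12. Medians run from 13.53 for ribosomal proteins to 4.21 for cancer-testis antigens.

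Epithelial identity was carried by simple-epithelium keratins. KRT18 read 13.79 and 13.69, its partner KRT8 12.62 and 12.40, KRT7 13.33 and 13.27, and KRT19 11.16 and 11.02. Junction genes were lower: the scaffold TJP1 read 11.17 and 11.11, the desmosomal DSP 9.60 and 9.38, and E-cadherin (CDH1) 8.31 and 8.19. EPCAM, an epithelial adhesion molecule, read 7.24 and 7.22, below the limit. In all, 10 of 18 members were well above background (55.6%, against 38.9% of all genes). The epithelial transcription factor ELF3 read 9.88 and 9.68. GRHL2, another epithelial transcription factor, was at the absent level (3.57 and 3.67), and the splicing regulator ESRP1 read 4.41 and 4.36, each by its only probe set with a single symbol.

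Mesenchymal genes were present alongside. VIM, the mesenchymal intermediate filament, read 13.42 and 13.48. Fibronectin (FN1) read 10.92 and 10.74, N-cadherin (CDH2) 10.31 and 10.25, and the matricellular SPARC 9.95 and 10.14. Of 10 members, 5 were well above background (50%, against 38.9% of all genes). The transcription factors of epithelial-mesenchymal transition did not reach the limit: ZEB1 read 7.70 and 7.84, SNAI2 6.83 and 7.09, and ZEB2 was at the absent level (3.35 and 3.27).

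Of 11 measured alveolar type II markers, 4 were well above background (36.4%), near the 38.9% of all genes, so the count sets the list apart in neither direction. LPCAT1, an enzyme of surfactant lipid synthesis, read 10.51 and 10.38, CTSH, a protease that processes surfactant protein, 8.81 and 8.75, and ABCA3, the lamellar body lipid transporter, 8.61 and 8.62. ETV5, a transcription factor of type II cells that also answers to ERK signalling, was the remaining one, at 8.06 and 8.06. Its other probe sets averaged 7.64 and 6.97, and the list's count was 3 when all probe sets of each gene were averaged. The surfactant proteins themselves stayed below the limit. SFTPC read 7.43 and 7.58, SFTPB 7.15 and 7.07 and SFTPD 4.74 and 4.66, each within the 3.55 to 7.81 span of the unrelated-tissue genes. NKX2-1, the transcription factor of the lung lineage, read 5.90 and 5.96. Genes encoding surfactant protein A were not analysed here.

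Among 9 type I markers, 3 were well above background (33.3%, again near the share of all genes): the caveolins CAV1 (12.73 and 12.82) and CAV2 (11.33 and 11.59), and EMP2 (8.70 and 8.62). AGER, AQP5 and PDPN, which define type I cells more narrowly, read 5.18 and 5.57, 6.27 and 6.06, and 4.59 and 4.62. AGR2, a protein disulfide isomerase of mucous cells, read 9.98 and 10.08. It was the only one of 9 airway secretory markers past the limit (11.1%, against 38.9% of all genes). The mucins MUC5AC and MUC5B read 7.01 and 6.90, and 6.83 and 6.79. The club cell protein SCGB1A1 read 5.05 and 5.17. Of 6 ciliated and 7 basal or squamous markers, 0 reached the limit, FOXJ1 and KRT5 being at 5.87 and 6.02, and at 6.29 and 6.42.

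Of 9 neuroendocrine markers, UCHL1, a ubiquitin hydrolase of neurons, was the exception at 12.37 and 12.37. The secretory granule protein CHGA (4.67 and 4.65) and synaptophysin (SYP, 4.75 and 5.13) were low. Endodermal genes were few above the limit, 2 of 19 (10.5%, against 38.9% of all genes). These were TFF1, a secreted peptide of gastric mucosa (10.08 and 10.04), and APOH, a liver plasma protein (8.32 and 8.37). The endoderm factor FOXA2 read 7.99 and 7.95, at the edge of the limit. GATA6 read 7.01 and 7.13 and FOXA1 6.99 and 7.01. The liver products FGA, FGB and FGG (fibrinogen chains) averaged 5.77, 5.66 and 5.79 in the EGF arrays, and albumin (ALB) 3.84.

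Markers of cells that a pure line should lack were low. Of 14 leukocyte, 11 endothelial and 7 MHC class II genes, 0 reached 8, against 38.9% of all genes. Their medians were 5.47, 5.13 and 5.59. The leukocyte antigen PTPRC read 3.93 and 3.85, and the endothelial PECAM1 5.33 and 5.37. Of 13 fibroblast and smooth muscle genes, 2 passed, COL1A1 (8.85 and 8.76) and ACTA2 (8.36 and 8.33). The other 3 COL1A1 probe sets averaged 6.43, 5.31 and 3.61, so the COL1A1 reading rests on 1 probe set of the _x_at kind. The other ACTA2 probe set averaged 3.76. The count of fibroblast and smooth muscle genes past the limit was 0 when all probe sets of each gene were averaged. LUM, a proteoglycan of fibroblasts, was at the absent level (3.09 and 3.04).

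Among genes known as drivers of lung carcinoma, 12 of 22 measured were well above background (54.5%, against 38.9% of all genes) and 0 were bright (against 2.22%). The first count was 6 when all probe sets of each gene were averaged. Averaging also lowered the count over all genes, to 3789 in place of 4648. The drivers' share then lay below that of all genes, so their higher share holds only with the brightest probe sets. MYC read 11.66 and 11.69, the cell cycle kinase CDK4 11.44 and 11.50, the receptor MET 11.32 and 11.24, and EGFR 10.42 and 10.56. STK11 read 8.56 and 8.60 and SMARCA4, a chromatin remodelling ATPase, 6.66 and 6.44. ALK, RET and ROS1, kinases activated by fusions in other lung tumours, averaged 5.52, 7.07 and 4.46. The CDKN2A locus is known to be deleted from both copies in A549. CDKN2A read 5.65 and 5.78 and CDKN2B 4.14 and 3.94, both above the absent level in each array although below 8. MTAP, the neighbour of CDKN2A, read 7.36 and 7.48 in its brightest probe set, while its other 4 averaged 6.26, 5.29, 4.33 and 2.94.

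Of 18 carcinoma surface and secreted antigens, 6 were well above background (33.3%, near the 38.9% of all genes). CD24, a small sialoglycoprotein, was bright (13.11 and 13.16). CD44, a hyaluronan receptor, read 11.75 and 11.85, the carbonic anhydrase CA12 11.89 and 11.67, and the adhesion molecule CEACAM6 10.97 and 11.02. CEACAM5, the carcinoembryonic antigen, read 6.37 and 6.48 and MUC1 6.16 and 6.16, below the limit. Among 15 cancer-testis antigens PRAME alone passed (8.99 and 8.86), and the list's median of 4.21 was the lowest of all lists. Of 16 S100 and annexin genes 12 passed (75%, against 38.9% of all genes) and 7 were bright (43.8%, against 2.22%). S100A10, the partner of ANXA2, read 13.66 and 13.71. S100A8 read 3.89 and 3.94.

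EGF acts through EGFR, which signals through ERK to immediate early genes, and 4 of 10 receptors and ligands of the family were well above background, near the 38.9% of all genes. The count was 1 when all probe sets of each gene were averaged. That share lay below the share of all genes averaged in the same way (3789 genes in place of 4648). EREG (epiregulin) read 10.50 and 10.76 and NRG1 (neuregulin 1) 10.32 and 10.28. HBEGF and TGFA lay below the limit (7.52 and 7.41, and 7.23 and 7.36). ERBB2 read 9.41 and 9.40, while ERBB3, its usual partner for neuregulin, read 4.78 and 4.85. EGF itself read 3.85 and 3.98, near the control probe sets, as a transcript measurement that does not see added protein. Of 25 immediate early and ERK feedback genes, 18 were well above background (72%, against 38.9% of all genes), with a median of 9.69 against 7.25. No group of the series is labelled as unstimulated, so a response to EGF cannot be read from these levels. The phosphatase DUSP1 read 12.63 and 12.68, IER3 12.06 and 11.82, EGR1 10.92 and 10.76 and FOS 10.49 and 10.58. DUSP6, an ERK phosphatase, read 7.15 and 7.15 and EGR3 4.50 and 4.48. The targets of the series, STAT3 and PIAS3, read 10.50 and 10.43, and 7.70 and 7.71, PIAS3 being below the limit. The cytokine kinase JAK1 read 10.62 and 10.55, and SOCS3, a feedback inhibitor, 6.52 and 6.50.

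The EGF arrays were last set against the transfected arrays, to show where the profile differs from the rest of the series. In limma, with the contrast of EGF minus the mean of the PIAS3 and STAT3 siRNA groups, TFF1 was the only probe set past an adjusted p of 0.05 of 22215 tested. TFF1 read 10.08 and 10.04 in the EGF arrays, against 7.29 and 6.61 with PIAS3 and 7.16 and 7.12 with STAT3 siRNA, with no overlap. Its difference was 3.02 ± 0.18 on the log2 scale (SE, n = 2 EGF and 4 transfected arrays, adjusted p = 0.00909). Thus 1 probe set was higher (0.0045%) and 0 were lower (0%) in EGF, against 1173 (5.28%) and 965 (4.34%) at an unadjusted p under 0.05. Against the PIAS3 group alone, 16 probe sets were higher (0.072%) and 6 lower (0.027%) in EGF, and against the STAT3 siRNA group alone 1 was higher and 0 lower. The TFF1 call was lost without EGF replicate 1 (adjusted p = 0.501), without EGF replicate 2 (0.460) and without STAT3 siRNA replicate 2 (0.0788). Its difference then was 2.996, 3.04 and 3.01. Without PIAS3 replicate 1, the array with raised MX1, the TFF1 difference was 3.19 (adjusted p = 0.000358). Calls also depended on the transfected arrays, at 155 higher and 176 lower without PIAS3 replicate 2, and 122 and 110 without STAT3 siRNA replicate 1.

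The brightest genes were largely shared by all arrays. The 100 brightest genes of the EGF arrays were in the top 100 of each transfected array in 91 to 96 cases. Of 641 genes at the absent level in the EGF arrays, 530 were also at it in both PIAS3 arrays and 606 in both STAT3 siRNA arrays, and 0 reached 6 in any transfected array. None of the 4648 genes well above background was at the absent level in both arrays of either transfected group. Over all 11963 genes, both EGF arrays lay above all 4 transfected arrays for 10.8% and below all 4 for 8.86%, and the counts by list that follow are read against these shares. Since the lists were chosen with earlier results of these data known, these counts describe and do not test.

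The genes next to TFF1 by p missed the threshold in this contrast. TMEM158, first among them, read 9.30 and 9.23 in the EGF arrays, against 7.13 and 7.45 with PIAS3 and 8.22 and 7.90 with STAT3 siRNA (1.59 ± 0.14, adjusted p = 0.0518). CCN2, a matricellular growth factor, read 10.30 and 10.18 in the EGF arrays, against 9.02 and 9.20 with PIAS3 and 9.13 and 9.07 with STAT3 siRNA (1.14 ± 0.10, adjusted p = 0.0518). The chemokine CCL2 read 8.16 and 8.21 in the EGF arrays, against 6.65 and 6.39 with PIAS3 and 6.99 and 6.50 with STAT3 siRNA (1.55 ± 0.15, adjusted p = 0.0595). CRISPLD2 and NAV3 lay in the same direction. The guanine nucleotide exchange factor VAV3 lay the other way, at 6.79 and 6.58 in the EGF arrays, against 8.02 and 8.01 with PIAS3 and 7.25 and 7.63 with STAT3 siRNA (-1.04 ± 0.13, adjusted p = 0.0656). ACSM3, MAP2K6 (a p38 kinase kinase), KCNJ2 (a potassium channel) and H2AC25 (a histone H2A) also lay lower in EGF and missed the threshold in the same contrast. Against the PIAS3 group alone, TMEM158 passed (adjusted p = 0.0361), and CCN2, CCL2, CRISPLD2, NAV3, ACSM3 and VAV3 passed at an adjusted p of 0.0484 each. Against the STAT3 siRNA group alone none of these 7 passed. TMEM158, CCN2 and CCL2 also passed in the joint contrast after quantile normalization again, centring, cyclic loess, a trend or robust eBayes.

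The targeted genes did not pass the limma test, in the joint contrast or against their own group alone. STAT3 read 10.50 and 10.43 in the EGF arrays, against 10.18 and 9.70 with PIAS3 and 10.23 and 9.94 with STAT3 siRNA (0.46 ± 0.15, adjusted p = 0.380 in the joint contrast). EGF minus STAT3 siRNA alone was 0.38 for STAT3, and EGF minus PIAS3 alone was 0.53. PIAS3 read 7.70 and 7.71 in the EGF arrays, against 7.78 and 7.72 in the arrays labelled PIAS3 and 7.50 and 7.64 with STAT3 siRNA (0.04 ± 0.09, adjusted p = 0.950 in the joint contrast). EGF minus PIAS3 alone was -0.0437 for the PIAS3 transcript (limma adjusted p = 0.919). The transcript level does not bear out the PIAS3 label, and the sources used here do not say whether the probes lie within the plasmid's insert.

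Of 19 endodermal genes, 4 lay above and 6 below all transfected arrays, against 10.8% and 8.86% of all genes. FGG read 5.93 and 5.64 in the EGF arrays, against 9.57 and 8.61 with PIAS3 and 6.21 and 7.92 with STAT3 siRNA (-2.29 ± 0.46, adjusted p = 0.166). CPS1, a urea cycle enzyme, read 6.61 and 6.40 in the EGF arrays, against 9.74 and 9.38 with PIAS3 and 6.80 and 9.05 with STAT3 siRNA (-2.24 ± 0.53, adjusted p = 0.213). STAT3 siRNA replicate 1 lay closest to the EGF arrays in both, and without it the differences were -2.72 for FGG and -2.80 for CPS1. Leaving out the nearest array widens a difference by itself, so these values are a description only.

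Of 28 NRF2 enzymes, 11 lay below and 0 above all transfected arrays, against 8.86% and 10.8% of all genes, and 0 passed the limma test. ALDH3A1 read 11.61 and 11.55 in the EGF arrays, against 13.04 and 12.62 with PIAS3 and 11.70 and 12.69 with STAT3 siRNA (-0.93 ± 0.26, adjusted p = 0.267). GPX2 read 9.78 and 9.68 in the EGF arrays, against 11.98 and 11.12 with PIAS3 and 9.92 and 10.83 with STAT3 siRNA (-1.24 ± 0.30, adjusted p = 0.222). STAT3 siRNA replicate 1 was nearest to the EGF arrays in both genes. Without it the differences were -1.18 for ALDH3A1 and -1.46 for GPX2, wider as the nearest array was left out.

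Of 10 EGF receptor family genes and ligands, 4 lay above and 0 below all transfected arrays, against 10.8% and 8.86% of all genes, and 0 passed the test. EGFR read 10.42 and 10.56 in the EGF arrays, against 10.00 and 9.76 with PIAS3 and 10.00 and 10.06 with STAT3 siRNA (0.54 ± 0.11, adjusted p = 0.166). HBEGF read 7.52 and 7.41 in the EGF arrays, against 6.68 and 6.42 with PIAS3 and 6.54 and 6.25 with STAT3 siRNA (0.99 ± 0.13, adjusted p = 0.0656). Of 25 immediate early and ERK feedback genes 8 lay above and 1 below, against the same 10.8% and 8.86%, with 0 past the test. CEACAM6, among the carcinoma antigens, read 10.97 and 11.02 in the EGF arrays, against 10.16 and 9.60 with PIAS3 and 9.46 and 9.59 with STAT3 siRNA (1.29 ± 0.16, adjusted p = 0.0656). CEACAM6 passed without PIAS3 replicate 1 (adjusted p = 0.0244) or replicate 2 (0.00694), and HBEGF without PIAS3 replicate 2 (0.0301) or STAT3 siRNA replicate 1 (0.0317). The keratin KRT18 read 13.79 and 13.69 in the EGF arrays, against 13.68 and 13.74 with PIAS3 and 13.60 and 13.66 with STAT3 siRNA (0.07 ± 0.09, adjusted p = 0.895).

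The mean level over 14 leukocyte markers was 5.38 and 5.38 in the EGF arrays, against 5.31 to 5.49 in the transfected arrays. Over 11 endothelial markers it was 4.96 and 4.99 in the EGF arrays, against 4.92 to 5.04. The airway secretory list averaged 6.56 and 6.55 in the EGF arrays, against 7.36 and 6.90 with PIAS3 and 6.61 and 6.86 with STAT3 siRNA. Of its 9 members, 3 lay below and 0 above all transfected arrays, against 8.86% and 10.8% of all genes. AGR2 read 9.98 and 10.08 in the EGF arrays, against 12.42 and 11.46 with PIAS3 and 10.26 and 11.35 with STAT3 siRNA (-1.34 ± 0.34, adjusted p = 0.238).

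**Figure D5:**
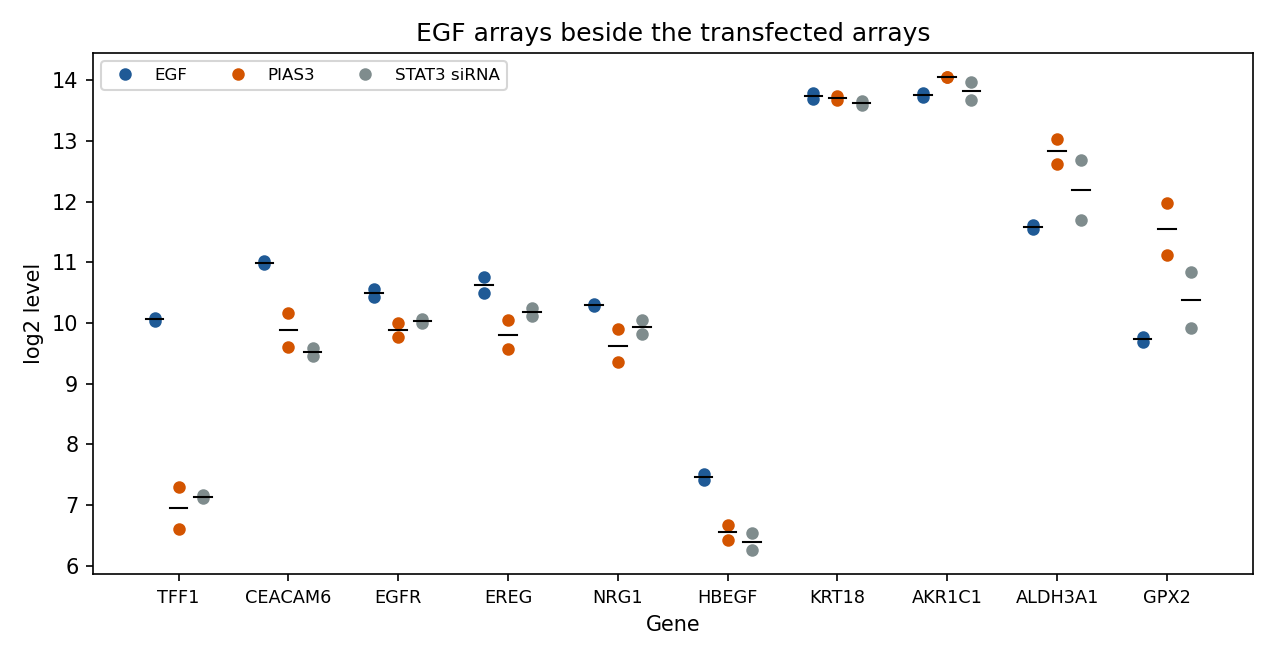
log2 levels (vertical axis) of 10 genes in each array (points) with the group mean (bar), for EGF, PIAS3 and STAT3 siRNA from left to right within a gene. The genes were picked for the picture after their values were seen. TFF1 stands above all transfected arrays in EGF, at 10.08 and 10.04, and KRT18 overlaps.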

How the data were processed

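The log2 levels are the authors' deposited values, made with RMA per the submitters' processing notes. RMA subtracts a background, equalises arrays and combines the probes of a set, so dim levels are compressed. Its version, software and annotation: not given in the sources used here. Of 22277 probe sets in 6 columns, the 62 array controls were left out. Platform annotation gave 1 symbol to 19064 probe sets, several to 1043 and none to 2108, and only those with 1 symbol were named. Of these, 19052 matched RefSeq by gene identifier and 0 symbols changed.

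Levels of the 2 EGF arrays were described with no test. For differences, all 6 arrays entered a two-sided limma fit (version 3.58.1, under R 4.3.3) with Benjamini-Hochberg adjustment over 22215 probe sets, with 3 residual degrees of freedom. Errors are the fit's standard errors. In 10 simulated data sets for the contrast of EGF with the mean of the transfected groups, on 22215 probe sets, the fit found 75.1% of probe sets shifted by 1 log2 and 96.2% of those shifted by 2 log2. The simulated noise was normal and independent between arrays and probe sets, with the spreads shuffled over probe sets. All shifts were upward in EGF. Deviations shared by many probe sets of an array were not simulated, so these shares are not the power in the real arrays. Named genes were the 25 brightest, members of the 28 lists, the 10 with the widest difference between EGF arrays, genes past the test, STAT3, PIAS3, EGFR and EGF. SCD5, MX1 and the genes of the plot by group were chosen after their values were seen. Lists were of cell type markers, lineage, carcinoma, EGF and JAK-STAT signalling and housekeeping genes, and ribosomal proteins were taken by symbol. Members and lists were chosen with earlier results of these data known. Promoter letters were from RefSeq, build GRCh38.p14, and 21 of 28 measured NRF2 enzymes matched. Alternatives were other absence limits, other limits for well above and bright, all probe sets, quantile normalization again, centring, cyclic loess, leaving out the dimmest 40 percent of probe sets, eBayes with trend or robust, a replicate block and leaving out each array. No scan or hybridization date was used, and batches were not tested.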

Additional observations from a re-analysis of the deposited data

How the results depend on the processing

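Levels moved little with the processing: over 165 named genes, normalizing again moved a level by at most 0.030 log2 and centring by at most 0.010, and taking 1 EGF array alone by at most 0.652 (SCD5). The counts of genes depend on where a limit is set. With an absence limit 1 log2 above the highest Trpn probe set, 1873 genes were at the absent level in place of 641. With the median of unrelated-tissue genes as the limit, 2350 were. A limit of 9 left 2888 genes well above background in place of 4648, and limits of 11 and 13 gave 680 and 96 bright genes in place of 266. Counting every probe set on its own gave 1773, 7006 and 473. Leaving out an EGF array gave 655 and 806 genes at the absent level, 4718 and 4753 well above background, and 280 and 267 bright. The SD between the EGF arrays was 0.152 in either normalization. In the contrast with the transfected groups, where 1 probe set was higher and 0 lower in EGF, the counts were 5 and 0 with quantile normalization again, 22 and 1 with centring, 12 and 0 with cyclic loess, 6 and 0 with a trend, 26 and 5 with robust eBayes, and 16 and 6 for EGF minus PIAS3. Leaving out each array gave 0 to 155 higher and 0 to 176 lower. The cause was not tested. Over combinations of a named gene and a setting, 60 brought a difference past the threshold that it had missed, 3 took TFF1 out of the call, and 1 changed a sign: the PIAS3 transcript, -0.0437 for EGF minus PIAS3. With the replicate block the counts were 1 and 1, and the pairing is only a shared number, as deviations of same-numbered arrays correlated at 0.0917, -0.0591 and -0.0470 between groups. The number of arrays limits the precision, and signal over background limits what can be said below a level of 8.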

Other observations

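Some genes that most cells express read low in the probe sets with a single symbol. The ribosomal protein RPLP2 read 6.72 on average in the EGF arrays by the brighter of 2 probe sets, and RPL27A 7.78 by its only one, while the other 49 ribosomal proteins on the list ran from 12.02 to 14.34. The tumour suppressor NF1 was at the absent level, at 3.68 and 3.71, and its other probe sets carry a second symbol and were not used. Among cytoskeletal genes the myosin light chain MYL9 read 4.90 on average, while the other 23 were well above background. Whether these probe sets measure their transcripts was not tested.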
